A study of Ovis aries with 18 samples.

Results

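Very high coverage cytosines were the CpG cytosines that received the most reads when sperm DNA of 6 rams was analysed by reduced representation bisulfite sequencing (RRBS). Their members were selected on coverage: the reads of the 6 rams were summed at each cytosine, and the top 0.1% by this sum was taken. This gave 1851 of 1850625 cytosines, and the remaining 1848774 served for comparison. The rams were of the Polypay breed and were fed before puberty. Sperm of 3 rams on a basal diet (control, Ram410, Ram423 and Ram444) was compared with that of 3 rams whose basal diet carried a top-dress of 1.5 g (0.22%) rumen-protected methionine (Ram424, Ram498 and Ram511). Each ram gave 1 library, so the ram was the replicate. The part of the same study that measured RNA of embryos was not used.

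RRBS cuts genomic DNA at CpG-rich sites, and bisulfite then turns unmethylated cytosines into thymines, so the share of reads that keep a cytosine is the methylation level. In mammalian sperm most CpG islands carry little methylation, whereas most of the remaining genome, including transposable elements, carries much of it. Repetitive DNA such as satellite arrays and ribosomal gene clusters occurs in many near-identical copies. An assembly often holds fewer of these copies than the animal does, and many lie on contigs that have not been placed on a chromosome, so reads from many copies can pile up at a few positions. Methionine feeds the synthesis of S-adenosylmethionine, the methyl donor of DNA methyltransferases.

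Coordinates are those of Oar_rambouillet_v1.0. A genome sequence, gene models and repeat annotation of that build were not used here, so neither genes nor repeat families are named and no check of imprinted regions as a mark of sperm was made.

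The coverage summed over all cytosines was 44504409 to 75603721 reads per ram, and the median was 22 to 39 reads per cytosine. Every cytosine had at least 10 reads in each ram. Ram498 had the deepest library and stood apart in the share of methylated reads over all cytosines. This share was 6.14% in Ram498, 9.12% in Ram511 and 14.8% to 15.6% in the other 4 rams. It weights each cytosine by its reads. With each cytosine outside the members counted once, the mean level was 12.1% in Ram498, 12.3% in Ram511 and 12.6% to 13.5% in the other 4.

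The summed coverage that chose the members had a median of 3845 reads and reached 251972, against a median of 160 reads at all other cytosines. The cut fell in a continuous range. The members nearest to it were PEKD01007414.1:22407 and PEKD01007414.1:22421 with 1837 reads each and PEKD01005822.1:21007 with 1835 reads. The nearest cytosines outside it were PEKD01006319.1:270, PEKD01006372.1:24021 and PEKD01006963.1:29865, each with 1834 reads. Over the rams, the levels of the 3 inside were 12.8% to 65.8% and those of the 3 outside 7.29% to 24.2%.

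The very high coverage cytosines lay mostly outside the placed chromosomes. Of the 1851, 1603 were on unplaced contigs (86.6%, 95% Wilson interval 85.0% to 88.1%), compared with 0.717% of all other cytosines. The interval covers counting error only, and neighbouring cytosines share reads. Seen from the contigs, 10.8% of the 14866 cytosines on unplaced contigs were members, against 0.0135% of those on placed chromosomes. Members occurred on 132 of the 639 contigs that held any cytosine, and 5 contigs held 432 of them (23.3%). PEKD01006704.1 had 101 members among 122 cytosines, PEKD01007283.1 had 95 among 139, PEKD01007170.1 had 89 among 108 and PEKD01007414.1 had 84 among 245. On these 4 contigs members made up between 34.3% and 82.8% of the cytosines covered. The longer scaffold KZ319282.1 had 63 members among 1802 cytosines.

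The other 248 members were spread over 14 of the 27 placed chromosomes. Chromosome 1 held 37, chromosomes 4 and 15 held 33 each, chromosome 14 held 26, chromosome 3 held 22, chromosome 25 held 21, chromosome 10 held 20 and chromosome 21 held 17. The remaining 6 chromosomes with members held 4 to 9 each. Relative to the cytosines covered, chromosome 25 was the densest, with 84.0 members per 100000 cytosines, followed by chromosome 15 with 63.8 and chromosome 4 with 51.0. No member lay on the other 13 chromosomes, among them the X chromosome with 22402 cytosines. Members also gathered at chromosome starts. Of the 248, 62 (25.0%) lay within 100000 bp of the first covered cytosine of their chromosome, compared with 0.200% of the other placed cytosines. These 62 formed 11 clusters, 6 on chromosome 15, 2 each on chromosomes 10 and 19 and 1 on chromosome 12. None lay within the same distance of the last covered cytosine, where 0.410% of the others did.

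Although members were 0.1% of the cytosines, they took 6.49%, 5.22% and 5.72% of all reads in Ram410, Ram423 and Ram444, and 5.83%, 3.93% and 4.57% in Ram424, Ram498 and Ram511. Of the methylated reads they took 15.0% to 19.5%. The position was kept in a ram that had no part in the choice: when the top 0.1% was chosen on 5 rams, 85.3% to 88.8% of those cytosines were also in the top 0.1% of the sixth. In every ram separately, 1239 of the 1851 members were in its top 0.1%. At least 100 reads were present in each ram at 1712 members, whereas the lowest value at a member was 10 reads in a ram.

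The molecular identifier of the libraries has 6 bases and thus 4096 possible sequences. Coverage exceeded that number in at least 1 ram at 183 members and in every ram at 72, and reached 49632 reads in 1 ram. For reads that start at the same site, the identifier alone cannot separate more molecules than that. The part of duplicate reads in these values was not tested.

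Coverage was less even between rams at members than over all other cytosines. After each ram was scaled to its own median coverage, the ram with most reads exceeded the ram with fewest by a median of 2.31-fold at members, 1.81-fold at all other cytosines and 2.61-fold at the others on unplaced contigs. The ratio was over 10-fold at 148 members (8.0%), compared with 0.0310% of all others and 2.33% of the others on unplaced contigs. At PEKD01007170.1:21603-21753, a cluster of 40 members, the median coverage was 39.5, 43.0 and 32.5 reads in the control rams, 36.5 in Ram424, 7223 in Ram498 and 2853.5 in Ram511. Ram498 and Ram511 alone carried this cluster past the cut. At PEKD01004980.1:15750 the same pair of rams was low instead, with 1954, 1098 and 948 reads in the control rams, 715 in Ram424, 20 in Ram498 and 18 in Ram511. At PEKD01006231.1:12151, Ram423 (3437 reads) and Ram511 (4452 reads) were high and the other 4 rams had 51 to 453. These differences are of coverage, which chose the members, and carry no test.

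Methylation was intermediate at most very high coverage cytosines. The mean level over members was 30.1%, 33.5% and 30.9% in Ram410, Ram423 and Ram444, and 32.0%, 25.6% and 27.9% in Ram424, Ram498 and Ram511. Over all other cytosines it was 12.6%, 13.2%, 13.5%, 13.5%, 12.1% and 12.3% in the same order. Members were higher in 6 of 6 rams, by 17.1 ± 2.36 points (SD, n = 6), with p = 0.03125 in an exact two-sided permutation test of 64 sign flips, the smallest p these can give. The mean level at members ranged more widely between rams than that of all others, with Ram423 highest and Ram498 lowest. The others on unplaced contigs had the same highest and lowest ram, at 30.9% and 25.3%. Their SD over the 6 rams was 1.97 points, against 2.46 at members on unplaced contigs.

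The comparison depended on which cytosines stood on the other side. Within unplaced contigs, members had 28.8% and other cytosines 28.4%, a difference of 0.44 points that ranged from -0.47 to 1.11 over the rams (exact two-sided permutation test, p = 0.15625). On placed chromosomes members had 37.8% and others 12.8%, a difference of 25.0 points in the same direction in each ram (exact two-sided permutation test, p = 0.03125). When cytosines at most 100 bp apart were joined so that each stretch counted once, the direction turned: clusters of members averaged 32.3% and the 127094 stretches of other cytosines 46.8%, a difference of -14.5 points (exact two-sided permutation test, p = 0.03125). Of these other stretches, 40.6% held 1 to 3 cytosines and averaged 73.4%, while those with over 10 cytosines held 1532286 of the other cytosines and averaged 8.11%.

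Extreme levels were scarce among members, as among the other cytosines of unplaced contigs. Between 20% and 80% methylation were 63.5% of members, 5.84% of all others and 57.8% of the others on unplaced contigs. Under 5% were 187 members (10.1%), compared with 78.6% of all others and 17.0% of the others on unplaced contigs. At 95% or more were 7.80% of all others and 1.54% of those on unplaced contigs, but 2 members, chr10:1341341 and PEKD01006574.1:179, which were named for these levels and had 96.7% and 97.4%. The split into classes shows members and the remaining unplaced cytosines with a like peak at 20% to 40%, which held 33.7% and 34.2% of them.

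**Figure D1:**
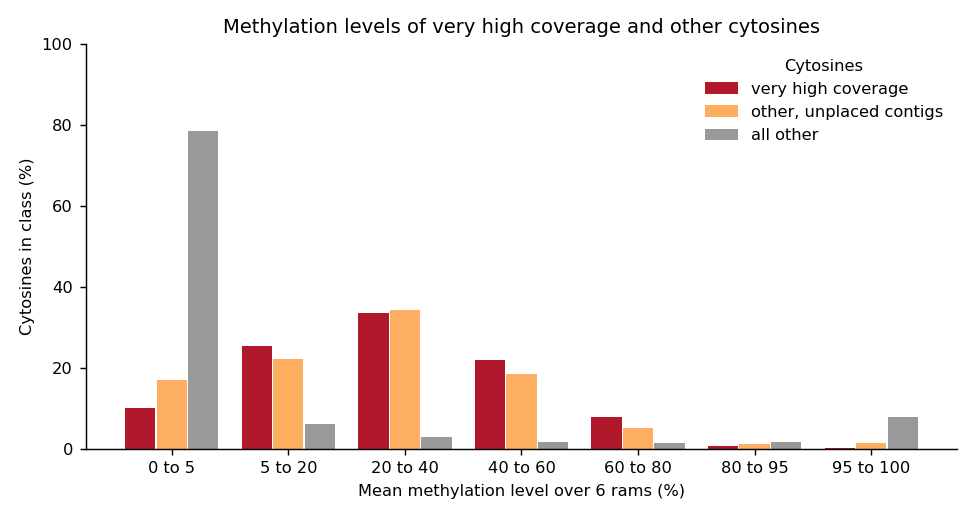
Share of cytosines (%) in 7 classes of mean methylation level over 6 rams, for the 1851 very high coverage cytosines, the 13263 others on unplaced contigs and all 1848774 others. Members and other unplaced cytosines both peak at 20% to 40% (33.7% and 34.2%), while 78.6% of all others lie under 5%.

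Ranking all cytosines by summed coverage gave a level that first fell and then rose. The mean level was 21.8% in the lower 50%, 4.30% from the 50th to the 90th percentile and 1.82% from the 90th to the 99th. It was 6.85% between the top 1% and the top 0.5% and 26.2% from there to the members. Among members it was 29.4% below the top 0.01% and 35.5% in the 186 cytosines of the top 0.01%. The share on unplaced contigs rose over the last classes from 0.870% to 9.51%, 61.6% and 89.8%, and was 58.1% in the top 0.01%. Ram498 had the lowest level of the 6 rams in each class.

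**Figure D2:**
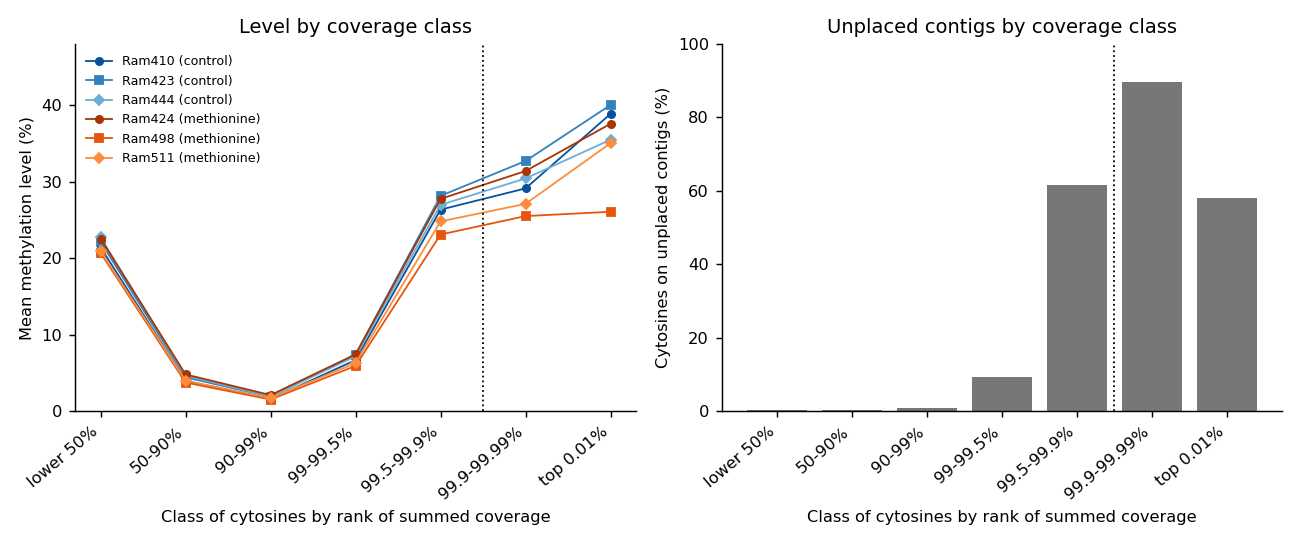
Left, mean methylation level (%) of each ram in 7 classes of cytosines ranked by summed coverage, with control rams in blue and methionine rams in orange. Right, the share of each class on unplaced contigs (%), where the dotted line marks the lower limit of the members. Level and share rise together over the last classes, from 1.82% and 0.870% at the 90th to 99th percentile to 29.4% and 89.8% in the first class of members.

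Members came in short runs. Joined where neighbours were at most 100 bp apart, about the length of a read, they formed 298 clusters, 259 on unplaced contigs and 39 on placed chromosomes. Only 16 clusters were a lone cytosine. The median cluster had 5 members, and the median span of the others was 59.5 bp, with 269 clusters of at most 100 bp and the longest at 399 bp. The 35 clusters with 10 or more members held 635 of them. Of the members, 99.1% had another member within 100 bp, although members were 0.1% of the cytosines. Of the other cytosines, 98.9% had another cytosine within that distance. The latter share counts neighbours of any coverage below the cut, so these shares cannot be set against each other. Covered cytosines were sparser around members, with a median of 7 within 50 bp compared with 12 around the others.

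The coverage around the clusters is given as a description, since the rule that chose the members holds every other cytosine below them. Other cytosines lay within 1000 bp of 254 clusters, and their median summed coverage was 407 reads, above the 160 of all others, while the cluster exceeded its own neighbours by a median of 9.86-fold. For the 37 such clusters on placed chromosomes the neighbours had 277 reads and the median ratio was 18.0-fold. At chr4:120998085-120998204, where members reached 251972 reads, the only other cytosine within that distance had 647 reads.

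The largest clusters differed widely in level. The largest, PEKD01006704.1:112-221, had 44 members and was low in each ram, at 1.68%, 4.81% and 3.35% in the control rams and 4.09%, 3.24% and 2.59% in the methionine rams. PEKD01007283.1:22623-22719, with 37 members, was at 2.17% to 5.94%. PEKD01006704.1:14950-15041, with 38 members, ran from 8.45% in Ram410 to 27.7% in Ram423. PEKD01007170.1:21603-21753, with 40 members, had 10.4% to 25.0%, and the methionine rams Ram498 and Ram511 with by far the most reads there were among the lower values. The next clusters by size, PEKD01007170.1:22182-22268, PEKD01007283.1:27615-27705 and PEKD01007170.1:25135-25238, had 22 to 27 members each and levels of 3.35% to 22.8%. The 4 remaining clusters with 21 or 22 members were higher. At chr1:3018016-3018147 the rams lay between 31.5% and 37.1%, at KZ319282.1:6997527-6997651 between 30.5% and 37.6% and at PEKD01007414.1:21078-21476 between 23.4% and 29.0%. At chr3:132342892-132343076 they spread from 26.0% to 74.2%.

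Many clusters were repeats of one another in layout. The layout of a cluster is here the list of distances and strands of its members, read from either end, and this comparison was chosen after the values were seen. Of the 208 clusters with 4 or more members, 62 (29.8%) had exactly the layout of another cluster, and these fell into 18 layouts with 348 members. The commonest, 5 cytosines at 0, 3, 20, 38 and 56 bp, occurred 13 times on 13 sequences, 11 unplaced contigs and chromosomes 15 and 21. A layout of 7 cytosines over 89 bp occurred 7 times, at chr1:3018864-3018953 and on 5 contigs. Another of 7 cytosines over 74 bp occurred 6 times, 3 of them on chromosome 15 and 3 on contigs. The fourth, 4 cytosines over 31 bp, occurred on 6 contigs.

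Shared layouts were compared over all covered cytosines as well, so that the cut on coverage did not shape the layouts. The cut still set which stretches held a member. Of the 80 stretches with 7 to 10 cytosines that held a member, 24 (30.0%) had the exact layout of another stretch elsewhere. The share was 23.6% for the 330 other stretches of that size on unplaced contigs and 0.802% for the 12474 on placed chromosomes. With 4 to 6 cytosines the shares were 55.6%, 45.7% and 23.8%, and with 11 to 20 they were 4.84%, 6.92% and 0.0291%. Short layouts are shared more readily, so the size classes are given apart.

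In the commonest layouts the copies had like levels at most cytosines, while in a few others they did not. Over the 13 clusters of the commonest layout the mean level was 25.4% to 29.3%, with an SD of 1.16 points, compared with an SD of 13.3 points over all 208 clusters. Within the layout the levels were unequal but recurred from copy to copy. The cytosine at 20 bp had 53.2% ± 3.57 (SD over 13 copies), while that at 56 bp had 11.7% ± 1.19 (SD over 13 copies). The first cytosine had 31.1% ± 1.48, the cytosine at 3 bp 24.3% ± 1.71 and that at 38 bp 17.0% ± 1.23. In the layout of 7 cytosines over 89 bp the levels averaged 15.5% to 45.0%, and its first cytosine was the least alike between copies, at 29.7% to 48.8%. Over the 18 layouts the mean levels of copies differed by a median of 3.65 points and by at most 23.0. The most unlike were a pair of 5-cytosine clusters, PEKD01006119.1:6932-6998 and PEKD01007022.1:10761-10827, with means of 41.4% and 64.4%, whose last cytosine had 45.4% in one and 90.7% in the other. In a layout of 6 cytosines over 78 bp with 3 copies, the cytosine at 50 bp had 38.8% to 82.2%. The copies share libraries, and reads that could match several of them were not traced here.

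Some copies followed each other at a regular distance. On chromosome 15 the 3 copies of the layout over 74 bp started at 28211, 29856 and 31488, which are 1645 and 1632 bp apart. On the contig PEKD01007259.1 a further pair of copies started 1632 bp apart. The copies of the layout over 89 bp on PEKD01007414.1 started 3240 bp apart. The 3 copies on chromosome 15 had means of 27.3%, 29.4% and 29.0% over the rams.

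**Figure D3:**
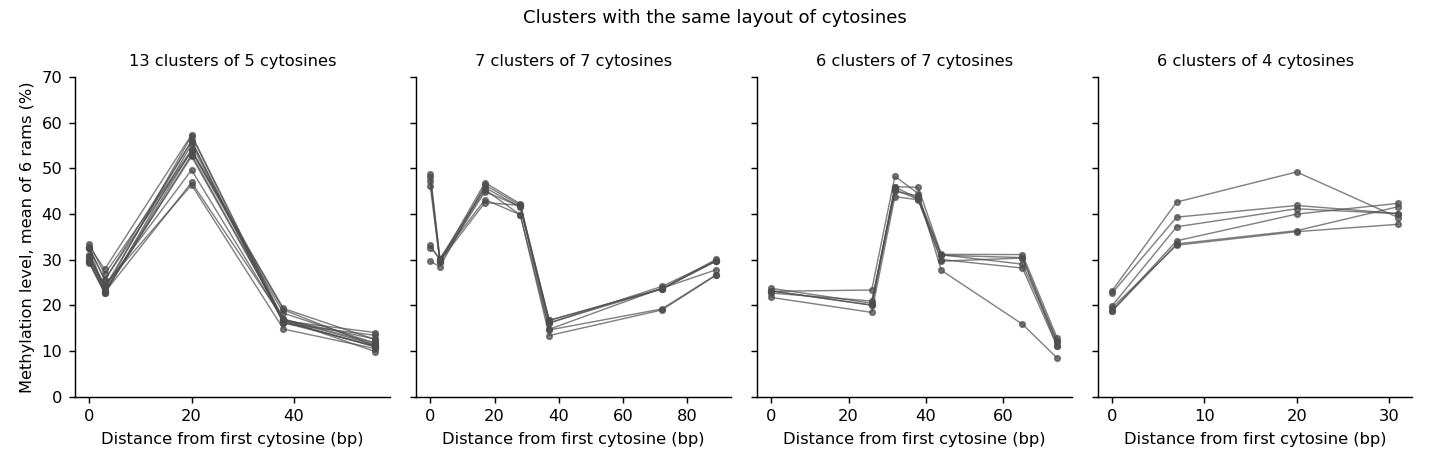
Methylation level (%, mean of 6 rams) of each cytosine against its distance (bp) from the first cytosine, for the 4 layouts with 6 or more clusters, where each line is a cluster on its own stretch of sequence. The 13 lines of the first panel lie close together and each peak at 20 bp, at 53.2% on average. In the other panels some cytosines differ between copies, such as the first over 89 bp (29.7% to 48.8%) and that at 65 bp in the layout over 74 bp (15.9% to 31.1%).

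Spacings of neighbours on the same strand had a median of 11 bp at members and 8 bp elsewhere. The spacings most common among members were 3 bp (9.48%, compared with 10.3% of the others), 6 bp (8.27% and 6.58%), 18 bp (7.33% and 1.57%) and 11 bp (7.20% and 3.10%). Spacings of 11 bp or a multiple of it made up 10.4% at members and 5.22% at the others, and their share was unequal between clusters. At chr4:120998085-120998204 it was 8 of 9 spacings on each strand. At chr14:410715-410869 it was 8 of 9 on the plus strand and 6 of 6 on the minus strand. At chr1:3018016-3018147, also among the 6 clusters with the highest coverage at a single cytosine, it was 1 of 10 on the plus strand and 1 of 9 on the minus strand, and in the other 3, on unplaced contigs, it was 0.

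The 10 cytosines of highest coverage all belonged to the cluster on chromosome 4, which had 20 members. At the first of them, chr4:120998152, the coverage was 49632, 43002 and 43762 reads in the control rams and 44630, 35255 and 35691 in Ram424, Ram498 and Ram511. Its level was 80.4%, 77.4% and 71.7% in the control rams, 79.5% in Ram424, 42.8% in Ram498 and 61.5% in Ram511. Ram424 lay among the control rams and Ram498 far below. The other 9 had a summed coverage from 195039 to 251431, and Ram498 was lowest at each of them. Ram511 was next lowest at all of these except chr4:120998162, which had 41.6% to 47.9% in the control rams and Ram424, 41.8% in Ram511 and 26.1% in Ram498. Its partner on the opposite strand, chr4:120998163, had 48.8% to 81.7%.

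The spread between rams was small in most clusters and wide in those of high level. The difference between the highest and the lowest ram had a median of 7.66 points and was under 10 points in 181 of the 298 clusters. Split by mean level after the values were seen, the 42 clusters under 20% had a median range of 4.52 points, the 227 from 20% to 50% had 7.31 and the 29 at 50% or over had 22.2. Of those 29, 10 were on placed chromosomes. A range over 20 points was reached by 27 clusters, 10 placed and 17 unplaced.

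**Figure D4:**
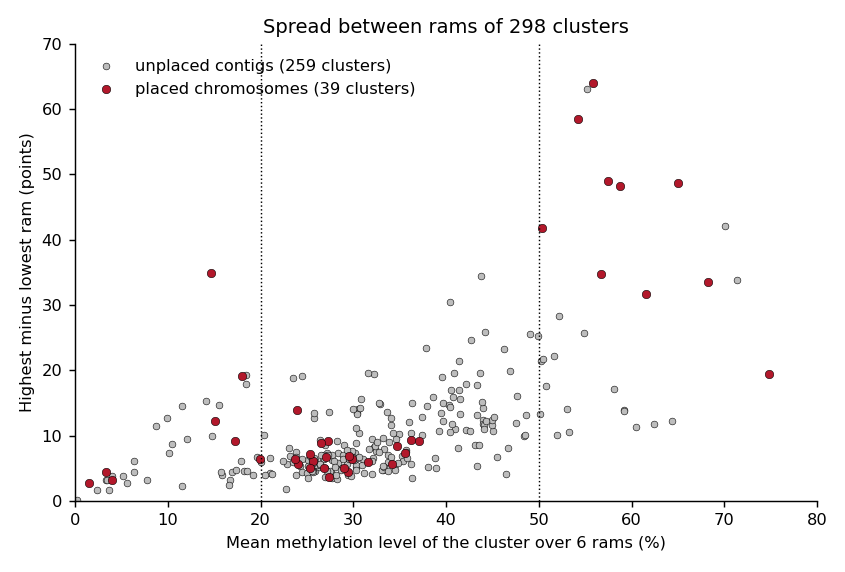
Highest minus lowest ram (percentage points) against the mean methylation level (%) of the 298 clusters of very high coverage cytosines, with dotted lines at 20% and 50%. The 10 placed clusters with a mean of 50% or over lie between 19.4 and 64 points, whereas most clusters at 20% to 50% lie near the median of 7.31 points.

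In 9 of the 10 placed clusters with a range over 20 points, Ram498 was the lowest. The widest was chr10:46029800-46029844, with 3 members, at 82.2%, 69.7% and 46.9% in the control rams, 61.6% in Ram424, 18.2% in Ram498 and 56.5% in Ram511. At chr20:15587858 the levels were 79.4%, 67.7% and 52.0% in the control rams and 61.1%, 20.9% and 44.5% in the methionine rams. At chr14:410715-410869, with 17 members, they were 79.3%, 78.7% and 65.0%, and 75.8%, 30.7% and 60.7%. These 3 clusters share the low value of Ram498, while Ram424 lay within the range of the control rams. At chr3:132342892-132343076 the levels were 72.6%, 74.2% and 53.1% in the control rams and 61.1%, 26.0% and 65.6% in the methionine rams. Further clusters of this kind were chr8:79362240-79362272, chr4:29394659-29394713, chr10:15854-15941 and chr14:410583-410606, where Ram498 had 22.8% to 45.1% and the other 5 rams 46.9% to 78.7%. The median coverage of Ram498 was 208 reads or more at each of the 8 clusters named here.

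**Figure D5:**
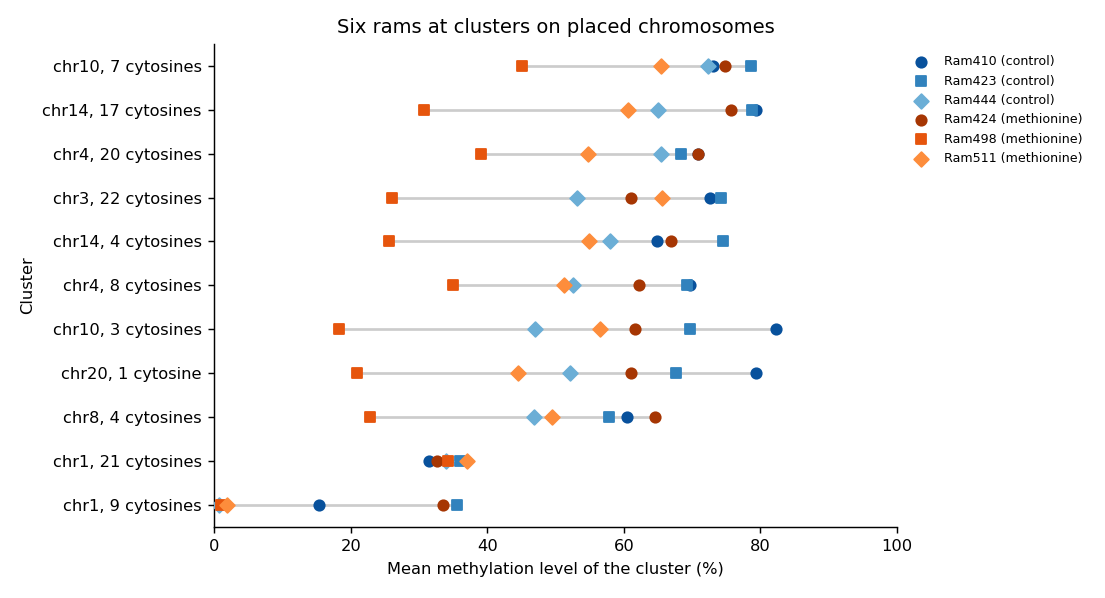
Mean methylation level (%) of each ram at the 11 clusters on placed chromosomes with a range over 20 points or with 20 or more members, where a point is a ram and the grey line spans the 6 rams. Ram498 is lowest at the 9 upper clusters, at 18.2% to 45.1%, while the 6 rams lie within 5.60 points at the chr1 cluster of 21 cytosines.

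Other orders of the rams occurred as well. At chr1:119959872-119959930, with 9 members, the levels were 15.4%, 35.6% and 0.65% in the control rams and 33.5%, 1.04% and 1.86% in the methionine rams. Ram410, Ram423 and Ram424 thus stood above the other 3. The median coverage there was 544, 524 and 34 reads in the control rams and 482, 181 and 204 in the methionine rams. At PEKD01004989.1:3428, Ram423 (52.0%) and Ram424 (48.5%) were lowest and Ram410 highest (90.6%). A pair of 2-cytosine clusters on different contigs, PEKD01005736.1:16466-16472 and PEKD01005371.1:17687-17693, were both high in Ram410, Ram498 and Ram511 and low in the other 3 rams. The former had 59.9%, 30.1% and 36.8% in the control rams and 25.5%, 52.2% and 58.4% in the methionine rams. The latter had 50.8%, 28.7% and 35.5%, and 24.0%, 49.2% and 54.5%. Likewise PEKD01006544.1:166, on a contig, had 82.8%, 68.5% and 42.3% in the control rams and 60.5%, 19.7% and 57.6% in the methionine rams, which is the order of the 6 rams in the cluster chr10:46029800-46029844.

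Single members also departed from their clusters. At chr1:3018041 on the plus strand, Ram498 (86.6%) and Ram511 (75.6%) stood far above the other 4 rams (23.7% to 32.2%), while the cluster around it spanned 5.60 points. At PEKD01006591.1:344 on the minus strand, Ram498 had 61.9% and the other 5 rams had 0.0% to 0.44%. Both were named after their values were seen. By the range over the rams, the first members were PEKD01007170.1:21614, PEKD01007170.1:21630 and PEKD01007170.1:21615, where the 3 control rams and Ram424 had 12 to 38 reads. The next were chr3:132342903, at 15.6% in Ram498 and 81.1% in Ram423, and chr10:46029822, at 17.3% in Ram498 and 82.2% in Ram410.

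Over all 298 clusters, Ram498 was the lowest in 185 and Ram511 in 58, while Ram423 was the highest in 172 and Ram424 in 60. Restricted to stretches with a mean of 5% or more, Ram498 was lowest in 63.7% of 289 clusters of members, in 37.8% of 2216 stretches of other unplaced cytosines and in 23.6% of 79098 stretches of all other cytosines. Ram423 was highest in 58.8%, 33.3% and 20.3% of them. These shares are descriptions over stretches that share libraries.

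Between-ram variance was taken within each diet, so it leaves out the difference between diets. It was compared after the part expected from counting was removed, at cytosines with a mean of 10% to 90%. The median over 1534 members corresponded to an SD of 3.19 points, and that over 174640 others to 7.31 points. The ratio of the median variances was 0.190, and 0.330 when the others were restricted to those with at least 20 reads in each ram. Within unplaced contigs the ratio was 1.12, with medians of 9.44 and 8.41 squared points. The mean variances there were 27.8 at members and 33.1 at the others, so the direction depended on the summary used. On placed chromosomes the medians were 32.7 at members and 58.9 at others.

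Strands of a CpG mostly had like levels. Both strands were members at 280 CpGs, where the levels differed by a median of 1.21 points, and at 4 of them by over 20 points. Besides the pair on chromosome 4 named above, these were chr1:3018041 and chr1:3018042 (45.9% and 73.9%), PEKD01005884.1:518 and PEKD01005884.1:519 (47.4% and 26.0%) and PEKD01007060.1:17777 and PEKD01007060.1:17778 (28.3% and 4.10%). At intermediate levels of 10% to 90%, 1.88% of such CpGs differed by over 20 points, compared with 0.587% of those with no member and 3.58% of those with no member on unplaced contigs. The partner strand of 926 members was not among the cytosines listed, which have at least 10 reads in each ram.

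The diets were compared to ask whether methionine was accompanied by other levels at these cytosines. The mean level at members was 31.5% ± 1.74 in the control rams and 28.5% ± 3.26 in the methionine rams (SD, n = 3 each). The difference of -3.00 points was within the spread of the rams, since Ram424 lay between the control values (exact two-sided permutation test, p = 0.3, where 20 assignments allow no p below 0.1). At the other cytosines the difference was -0.43 points, and the difference between both was -2.57 points (exact two-sided permutation test, p = 0.3). Without Ram498 the difference at members was -1.53 points, and without Ram424 it was -4.76. The difference between both was -1.38 points without Ram498, -1.63 without Ram423 and -3.89 without Ram424, and it was -5.57 in pooled reads and -5.99 on placed chromosomes. Without Ram424 both p were 0.1, the smallest that the 10 assignments of this exact permutation test can give. In pooled reads the level at members was 45.9%, 44.9% and 41.0% in the control rams and 44.0%, 25.0% and 32.8% in the methionine rams. At the other cytosines it was 13.2%, 13.2% and 14.1% in the control rams and 13.7%, 5.37% and 7.98% in the methionine rams. Within unplaced contigs, a comparison chosen after the data were seen, the mean level differed by -2.47 points at members and by -2.12 at the others. The difference between both was -0.347 points there (exact two-sided permutation test, p = 0.7). On unplaced contigs the lower mean with methionine was thus seen at members and at the others. A test of 3 against 3 rams cannot show that both differences are equal. On placed chromosomes the mean level differed by -6.41 points at members and by -0.41 at the others.

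Cytosine by cytosine, no member was called differentially methylated (DMC, q under 0.01 and a difference over 20 points in pooled reads) by logistic regression with overdispersion, compared with 341 of 1850625 cytosines in all, or 0.0184%. At an unadjusted p under 0.05 were 193 members (10.4%), of which 187 were lower with methionine, against 2.94% of all cytosines. On unplaced contigs the shares were 11% of members and 6.30% of the others. An F test in the same model and limma called 0 of all cytosines, so their 0 among members says nothing of them. At an unadjusted p under 0.05 the F test had 62 members (3.35%), against 0.374% of all cytosines, and limma had 13 (0.702%), against 5.41%. Relative to all cytosines, members were thus more frequent by the F test and less frequent by limma. Without Ram424 the regression called 1424 cytosines (0.0769%), 5 of them members: chr1:3018041, which was higher with methionine, and chr4:120998086, chr4:120998118, chr4:120998119 and chr14:410868, which were lower. Without Ram444 it called 643 cytosines (0.0347%), of which 2 were members, chr4:29394682 and chr4:29394704. These 7 were named after their values were seen.

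Overdispersion, the excess of the spread between rams over counting error, had a median of 4.67 at members and 1, its lower limit, elsewhere. At a given spread between rams it grows with coverage, which chose the members, so it is no measure of that spread. The pooled difference between diets had a median size of 2.22 points at members. It exceeded 20 points at 18 members (0.972%), against 1.15% of all cytosines, and 16 of these were lower with methionine. They comprised 4 on chromosome 3, 4 on unplaced contigs, 3 each on chromosomes 4 and 14, 2 on chromosome 10 and 1 each on chromosomes 1 and 20. On unplaced contigs the share over 20 points was 0.250% of members and 1.76% of the others. Among the 4 there, PEKD01007170.1:21705 and PEKD01007170.1:21709 had only 45 to 91 reads in the control rams and Ram424.

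With no minimum difference, 8 members had a q under 0.01 in the logistic regression, against 0.0189% of all cytosines, and each was on an unplaced contig. Overdispersion at these 8 was 1.01 to 2.90. Where it is near 1, q rests on counting of reads more than on the spread between rams. The smallest q, 1.17e-12, was that of PEKD01006231.1:12151, at 52.9%, 43.2% and 43.1% in the control rams and 40.4%, 31.8% and 33.2% in the methionine rams. Its neighbour PEKD01006231.1:12119 was also lower, and both had under 110 reads in 3 of the rams. At PEKD01007022.1:8710 the levels were 41.4%, 40.7% and 37.4% in the control rams and 31.6%, 31.7% and 30.9% in the methionine rams (q = 3.81e-07 by the logistic regression), with 808 to 1192 reads per ram. Its partner strand PEKD01007022.1:8711 had 42.7% to 48.8% and 34.7% to 35.4%. On the same contig PEKD01007022.1:10060 had 72.3% to 73.9% and 62.2% to 68.1%. At PEKD01005469.1:16820 the control rams had 54.1% to 59.2% and the methionine rams 44.4% to 46.5%, and at PEKD01005791.1:711 they had 32.5% to 34.6% and 22.1% to 27.1%. The exception in direction was PEKD01004980.1:15750, with 59.0% to 61.8% in the control rams and 75.8%, 65.0% and 61.1% in the methionine rams, where the last 2 values rest on 20 and 18 reads. The smallest q of a member was 0.971 by the F test and 0.807 by limma.

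All 3 methionine rams lay below all 3 control rams at 138 members (7.46%), compared with 1.35% of all cytosines and 6.15% of the others on unplaced contigs. They lay above at 9 members (0.486%), compared with 1.08% of all cytosines and 2.07% of the others on unplaced contigs. By the sign of the pooled difference alone, 85.5% of members were lower with methionine, against 34.6% of all cytosines and 60.6% of the others on unplaced contigs. The shares higher with methionine were 14.5% of members, 33.6% of all cytosines and 34.3% of the others on unplaced contigs, and the rest had no difference. Among clusters, 278 of 298 had a lower mean with methionine, by a median of 2.32 points (-2.32 as methionine minus control), and all 29 clusters at 50% or over did. Leaving out a ram left 244 to 282 clusters lower. Without Ram498 it was 251, with a median difference of -1.21 points, and the median of the 29 clusters moved from -7.31 to -4.38. Without Ram424 it moved to -14.1. Clusters are not independent of each other, since they share the 6 libraries.

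Joining all cytosines at most 100 bp apart gave 127177 loci, of which 280 held a member. None of the 280 was called by the logistic regression, compared with 0.107% of all loci. At an unadjusted p under 0.05 were 30 of them (10.7%), against 7.48% of all loci, and the smallest q was 0.0640. The F test and limma called 0 of all loci. At an unadjusted p under 0.05 the F test had 4 (1.43%), against 1.62% of all loci, and limma had 0, against 5.61%. The 4 by the F test, a share near that of all loci, began at PEKD01004980.1:15702, PEKD01005409.1:7758, PEKD01005860.1:24768 and PEKD01006231.1:12073.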

How the data were processed

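Sperm RRBS of 6 rams was analysed, grouped by the diet in their labels. The authors trimmed single-end reads, used Bismark with Bowtie2 to align them to Oar_rambouillet_v1.0, removed duplicates by molecular identifiers and kept CpG cytosines with at least 10 reads in each ram. The deposited values are counts of reads, methylated and unmethylated, at each cytosine of each ram, and their sum equalled the coverage throughout. All per-sample columns of this table were mapped. The embryo counts were not used.

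Members were the 0.1% of cytosines with the highest coverage summed over rams. Members, lists and tests were chosen with earlier results of these data known. Levels were averaged over cytosines per ram and compared by exact two-sided permutation tests over rams. Diet was tested at each of 1850625 cytosines by logistic regression with overdispersion of at least 1, a chi-square test and Benjamini-Hochberg adjustment over all cytosines. Age of the rams was not in the labels and was not a covariate. Libraries gave a median of 22 to 39 reads per cytosine. The p-values of the permutation tests measure only the spread between these 6 samples. In the logistic regression, where overdispersion is at its lower limit of 1, the p-value rests on counting of reads. The 95% interval of a share is by the method of Wilson and reflects counting error alone.

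The regions named were the clusters with most members, the 10 members of highest coverage, the 5 with the largest range over rams, those that pass q under 0.01, and 3 cytosines on each side of the cut. Those named outside this rule were chosen after their values were seen, as were the layouts and the classes of clusters. Alternatives were other cuts, scaled rams, cytosines high in every ram, pooled reads, means over loci, placed chromosomes only, an F test, no overdispersion, limma on logits with 0.5 reads added, other thresholds, merged strands, a minimum of 20 reads, other gaps and each ram left out in turn. The scripts were tested on simulated data. Python 3.11.15 (numpy 2.4.6, pandas 2.3.3, scipy 1.17.1, matplotlib 3.10.9) and R 4.3.3 with limma 3.58.1 were used.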

Additional observations from a re-analysis of the deposited data

How the results depend on the processing

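The higher level of members held its direction under every alternative cut, scaling and ram left out, except that the mean over loci turned it to -14.5 points and unplaced contigs alone left 0.441 points, past no threshold (chosen after the data were seen). Leaving out a ram gave 16.5 to 17.9 points, where 32 sign flips allow no p below 0.0625. The diet difference at members kept its sign under each alternative run, and no p under 0.1 was possible. It was -1.53 to -4.76 with a ram left out, -10.0 in pooled reads and -6.41 on placed chromosomes. At the other cytosines it was -4.46 in pooled reads and -0.41 on placed chromosomes. On unplaced contigs it was -2.47 at members and -2.12 at the others, and the difference between both was -0.347. The count of members called was 0 of 1851, against 341 of all 1850625 cytosines (0.0184%). It became 15 of 9271 for the top 0.5% of cytosines, a share above that of all cytosines. The count became 18 without overdispersion (5905 of all cytosines), 4 for a difference over 10 points (346) and 8 with no minimum (350). With a ram left out it was 0 to 5 (446 to 1424). It was 0 under the other alternatives, of which the F test and limma called 0 of all cytosines. For loci it became 1 without overdispersion (1999 of all loci), at chr20:15587858. The top 0.5% gave 1454 clusters, 66.6% of members on unplaced contigs and 6.87% of the coverage (mean of 6 rams, 5.29% for the members), and the top 0.01% gave 30 clusters, 58.1% and 2.82%. The ratio of median between-ram variances was 0.330 against others with 20 reads in each ram, 1.12 on unplaced contigs and 0.165 to 0.273 with a ram left out. The causes of these changes were not tested. No paired analysis was possible because the groups share no replicate number. The build's sequence and annotation were not used here, so copies of a repeat could not be identified by sequence, and reads that match several copies could not be traced.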
